A study of Homo sapiens with 8 samples.

Results

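The p53 and RB checkpoint genes are a set of 9 genes taken by symbol from the deposited table of 23346 genes: MDM2, CDKN1A, GADD45A and BAX on the p53 side, and CDKN2A, RB1, RBL1, E2F1 and E2F2 on the RB side. All 9 symbols were found. Polyadenylated RNA was sequenced from 8 replicate samples of hCMEC/D3, a clonal line of human brain microvascular endothelial cells often grown in culture to stand for the vessels of the brain. The 8 libraries form 1 group, all of them from cells immortalised with TERT and the large T antigen of SV40, and no primary or untransformed cells were analysed here. The labels do not say whether the replicates were separate cultures, so every spread and p-value describes only the differences between these libraries. The questions were how high each checkpoint gene stood, how its level varied between replicates, and how it stood beside its relatives and partners in the same libraries.

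The p53 protein is a transcription factor that switches on CDKN1A, which encodes the kinase inhibitor p21, GADD45A, a stress-response gene, and BAX, which permeabilises mitochondria in apoptosis. It also switches on MDM2, whose product is the ubiquitin ligase that keeps p53 low. RB1 and RBL1 encode pocket proteins (RB and p107) that bind E2F factors and hold back genes for DNA synthesis, and CDKN2A encodes an inhibitor of the cyclin D kinases (p16) and, from another first exon, an inhibitor of MDM2 (ARF). Large T antigen is known to bind both p53 and the pocket proteins. Binding of this kind acts on proteins, and only RNA was measured here.

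Sequences near the start sites of these genes are shown first because the levels below are those of known E2F-responsive and p53-responsive genes. Among the promoters in the RefSeq table (GRCh38.p14), the 250 bases before the start site were searched on both strands for the E2F letters TTTCCCGC, TTTCGCGC, TTTGCCGC and TTTGGCGC, and the matches found in 1 promoter did not overlap each other. E2F1 and RBL1 each held them 2 times, and E2F2 and MDM2 each 1 time. These letters occurred in 2.79% of the 35116 promoters of the table, and at least 2 times in 0.122%. CDKN1A, BAX and CDKN2A held none in this window (for CDKN2A it lies before the upstream start, that of ARF, and not before the p16 start, which the p53 search below used), GADD45A was not matched, and the RB1 entry was not used because it lies inside the gene. The E2F1 window (chr20:33686386-33686635, minus strand) has the letters 33 and 20 bases before the start, the RBL1 window (chr20:37095998-37096247, minus strand) 26 and 16 bases before it, and the E2F2 window (chr1:23531234-23531483, minus strand) 42 bases before it. The matching letters are in capitals in the 3 windows:
E2F1: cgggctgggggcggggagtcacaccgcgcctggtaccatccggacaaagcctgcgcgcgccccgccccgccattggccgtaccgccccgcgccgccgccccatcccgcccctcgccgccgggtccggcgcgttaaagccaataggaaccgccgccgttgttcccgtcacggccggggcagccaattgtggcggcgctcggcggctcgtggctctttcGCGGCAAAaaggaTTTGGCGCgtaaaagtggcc
RBL1: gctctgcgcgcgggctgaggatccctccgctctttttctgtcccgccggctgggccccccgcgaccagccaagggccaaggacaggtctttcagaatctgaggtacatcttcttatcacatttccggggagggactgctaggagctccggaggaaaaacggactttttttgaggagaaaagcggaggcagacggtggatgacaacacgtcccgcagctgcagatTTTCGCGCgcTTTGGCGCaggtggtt
E2F2: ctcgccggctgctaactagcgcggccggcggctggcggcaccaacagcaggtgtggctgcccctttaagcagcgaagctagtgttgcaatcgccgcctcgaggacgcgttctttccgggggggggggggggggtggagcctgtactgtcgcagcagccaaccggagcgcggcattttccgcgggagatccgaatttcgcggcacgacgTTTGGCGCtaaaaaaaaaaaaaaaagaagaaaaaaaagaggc

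For the p53 side, 5000 bases on either side of each canonical start site in GRCh37 were searched for a pair of adjoining p53 consensus decamers on either strand, with an exact core in each decamer (a C, then 2 bases that are A or T, then a G) and at most 2 mismatches elsewhere. CDKN1A and GADD45A held 1 such pair each, and the other 7 genes held none. Among 18829 protein-coding genes, 5.02% held at least 1. The CDKN1A pair (chr6:36644226-36644245) lies 2256 bases upstream of the canonical start and overlaps an exon of another CDKN1A transcript. The GADD45A pair (chr1:68152458-68152477) lies 1584 bases downstream of the start, in intron 3. A match of letters is a description, not evidence of binding. Pairs with a spacer or an altered core were not searched for, so the lack of a match is not evidence of no site. The cores are in capitals in the 2 pairs:
CDKN1A: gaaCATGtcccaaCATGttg
GADD45A: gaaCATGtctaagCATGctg

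Libraries held 34694272 to 45102622 read pairs, taken as the deposited counts halved because all counts were even. Levels are given as CPM, the counts scaled to a common library size after TMM normalisation. Where genes are compared with each other they are given as CPM per kilobase of the canonical transcript (GENCODE on GRCh37). The authors' CQN-normalised values, on a log2 scale and adjusted for gene length and GC content, are given beside CPM. Of the markers of endothelium in general 8 of 8 were detected, and no marker particular to brain endothelium was examined. They included CDH5 at 649 ± 152 CPM and PECAM1 at 402 ± 118 CPM (SD, n = 8). Of the other lists, 4 of 6 fibroblast or mural, 2 of 5 epithelial and 1 of 4 leukocyte markers were detected, and their members PDGFRA, DCN, EPCAM, CDH1, ESRP1, PTPRC, AIF1 and CD3E were not detected, with means of 0.943 CPM or less. The detected members were COL1A2 (134 CPM), COL1A1 (33.5), RGS5 (14.4), PDGFRB (9.57), KRT8 (26.1), KRT19 (2.61) and CD68 (58.8 CPM). The part of other cell types in the results was not tested. The libraries differed in how the level changed with transcript length. The slope of log2 CPM deviations per doubling of length was -0.215 in replicate 2, -0.101 in replicate 7 and -0.325 in replicate 8, and 0.0816 to 0.142 in the other 5. On CQN-normalised values the slopes were between -0.035 and 0.017.

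All 9 checkpoint genes were detected, meaning at least 1 CPM in all 8 libraries, as were 51.3% of the genes in the table. The mean level per kilobase fell in the order CDKN2A (338 ± 96.5 CPM per kilobase, SD, n = 8), BAX (128 ± 51.6), CDKN1A (96.8 ± 13.9), GADD45A (91.4 ± 12.97), MDM2 (32.1 ± 2.46), RB1 (31.8 ± 10.3), E2F1 (26.0 ± 7.44), RBL1 (10.8 ± 4.58) and E2F2 (4.43 ± 0.311). CDKN2A thus stood above 98.6% of detected genes with a known length, and E2F2 above 27.0%. The ranges over the 8 libraries did not overlap between CDKN2A and BAX, between GADD45A and MDM2, or between E2F1 and RBL1. The other neighbours in this order overlapped. CDKN1A exceeded GADD45A in 5 of 8 libraries, MDM2 exceeded RB1 in 4, and RB1 exceeded E2F1 in 5. Parts of this order depended on the length or scale. With the union of exons (3885 nt in place of 978 nt) CDKN2A had 85.0 CPM per kilobase and still exceeded BAX in 8 of 8 libraries. The mean log2 ratio of RB1 to E2F1 turned from 0.26 to -0.17 with the union of exons, and GADD45A exceeded MDM2 in 6 of 8 libraries on CQN-normalised values, against 8 of 8 per kilobase. The canonical transcript of BAX has 795 nt and the union of its exons 2587 nt. BAX exceeded CDKN1A in 7 of 8 libraries with the first and in 0 of 8 with the second, and in 0 of 8 on CQN-normalised values.

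**Figure D1:**
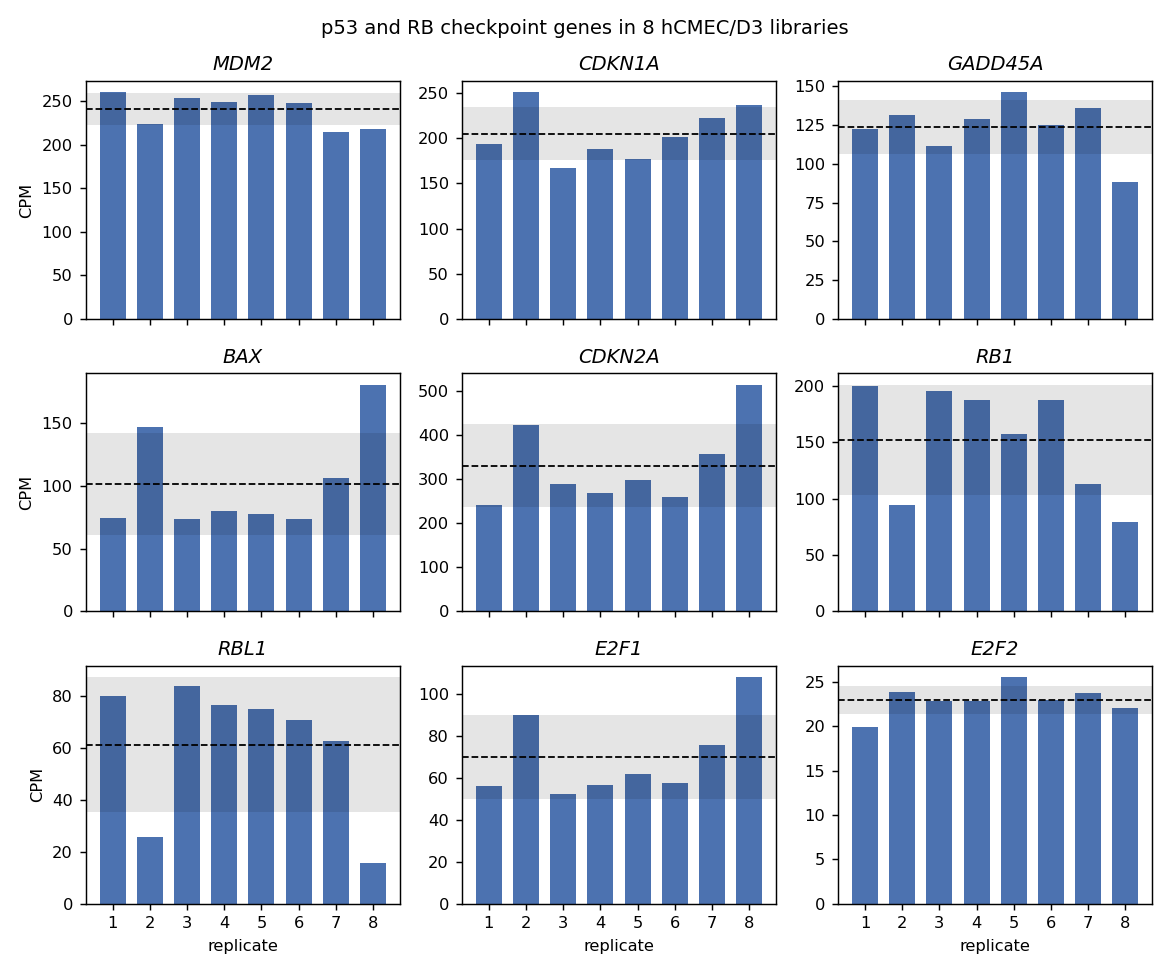
CPM of the 9 checkpoint genes (vertical axes, from 0) in replicates 1 to 8 (horizontal axis); the dashed line is the mean and the grey band the mean ± SD of the 8 libraries. BAX, CDKN2A and E2F1 were highest and RB1 and RBL1 lowest in replicate 8, and MDM2 and E2F2 varied little.

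MDM2 (chromosome 12, 69201971 to 69239212, plus strand, 11 exons) was among the steadiest of the 9 genes on the CPM scale. Its lowest, median and highest levels were 215, 248 and 260.1 CPM, in replicate 7, across the group and in replicate 1, and its coefficient of variation was 7.65%. On the CQN scale the picture changed, with 8.12 in replicate 2 and 8.28 in replicate 8 against 7.37 to 7.68 in the other 6. Replicates 2 and 8 were thus apart and high on the CQN scale. On the CPM scale they were low instead, at 224 and 218 CPM, together with replicate 7 at 215 CPM. The other libraries lay between 248 and 260.1 CPM. Detected genes within 20% of the 7490 nt of MDM2 (1474 genes) had median log2 CPM deviations of -0.33 in replicate 2 and -0.47 in replicate 8, where MDM2 had -0.10 and -0.14.

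CDKN1A (chromosome 6, 36644237 to 36655116, plus strand, 3 exons), the p21 gene, stood above 93.6% of detected genes per kilobase. Its lowest, median and highest levels were 168, 198 and 251 CPM, the lowest in replicate 3 and the highest in replicate 2. On the CQN scale it ran from 8.43 in replicate 8 to 8.86 in replicate 6, with an SD of 0.13. The library with the second highest CPM, replicate 8 at 237 CPM, was therefore the lowest on the CQN scale.

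GADD45A (chromosome 1, 68150860 to 68154021, plus strand, 4 exons) had lowest, median and highest levels of 88.2, 127 and 146 CPM. Replicate 8 was the lowest and replicate 5 the highest. Its CQN value in replicate 8, 7.12, was also below the 7.88 to 8.36 of the other 7 libraries. GADD45A was low in replicate 8 on both scales, while 1077 detected genes of like length (within 20% of 1352 nt) had a median log2 CPM deviation of 0.50 there and GADD45A had -0.47.

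BAX (chromosome 19, 49458117 to 49465055, plus strand, 6 exons) had lowest, median and highest levels of 73.4, 78.6 and 181 CPM. Replicates 2, 7 and 8 were the high ones, at 147, 106 and 181 CPM, and the other 5 lay between 73.4 and 79.9 CPM. On the CQN scale BAX spanned only 7.51 to 7.76, and its SD of 0.10 was below the median SD of detected genes, 0.16. Genes of like length (416 within 20% of 795 nt) had median log2 CPM deviations of 0.37 in replicate 2 and 0.67 in replicate 8, against 0.62 and 0.91 for BAX. In the table the interval of BAX overlaps 10 entries of the SNAR-A family. Whether their exons overlap, or reads were shared between them, was not examined.

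CDKN2A (chromosome 9, 21967751 to 21994490, minus strand, 3 exons) was the most abundant of the 9 genes on all 3 scales. Its lowest, median and highest levels were 241, 292 and 513 CPM. Replicates 2 and 8 were the highest, at 421 and 513 CPM, and replicate 7 followed at 356 CPM. On the CQN scale the 8 values lay between 9.35 and 9.62, so that the order of the CPM values was not kept. Counts per gene do not separate the p16 and ARF transcripts. Part of the CDKN2A interval is shared with the listed gene C9orf53.

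RB1 (chromosome 13, 48877883 to 49056026, plus strand, 27 exons) had lowest, median and highest levels of 79.6, 173 and 199 CPM. Replicates 2, 7 and 8 were low, at 94.5, 113 and 79.6 CPM, and the others lay between 158 and 199 CPM. The same 3 libraries were lowest on the CQN scale, at 7.18, 7.07 and 7.05 against 7.38 to 7.61. LPAR6, on the opposite strand, lies within the RB1 interval, and whether counting used strand is not given in the sources used here.

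RBL1 (chromosome 20, 35626178 to 35724410, minus strand, 22 exons), the p107 gene, was the most variable of the 9 genes. Its levels in replicates 1 to 8 were 80.1, 25.6, 84.1, 76.6, 75.3, 70.97, 62.8 and 15.8 CPM. Replicates 2 and 8 were low and did not overlap with the other 6, and the highest library had 5.31 times the level of the lowest. The lowest library held 669 read pairs (halved counts) of RBL1. CQN-normalised values showed the same 2 libraries low, with 5.26 in replicate 2 and 4.65 in replicate 8 against 6.23 to 6.43. Genes of like length (2209 within 20% of 5686 nt) had median log2 CPM deviations of -0.19 and -0.29 in these libraries, where RBL1 had -1.05 and -1.71. In replicate 7, which also had a negative length slope, RBL1 had a deviation of 0.21. What part the library differences had in the low RBL1 values was not tested.

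E2F1 (chromosome 20, 32263292 to 32274210, minus strand, 7 exons) had lowest, median and highest levels of 52.6, 59.8 and 108 CPM. It was highest in replicates 8, 2 and 7, at 108, 90.4 and 75.9 CPM, and between 52.6 and 62.0 CPM in the other 5. On the CQN scale it had the smallest SD of the 9 genes, 0.08, and ran from 6.91 to 7.17, a range of 0.26 beside 0.25 for BAX. E2F2 (chromosome 1, 23832920 to 23857712, minus strand, 7 exons) was the least abundant of the 9 and had lowest, median and highest levels of 19.9, 22.9 and 25.6 CPM. Its libraries differed little on either scale, with a coefficient of variation of 7.02% in CPM and an SD of 0.12 in CQN values.

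**Figure D2:**
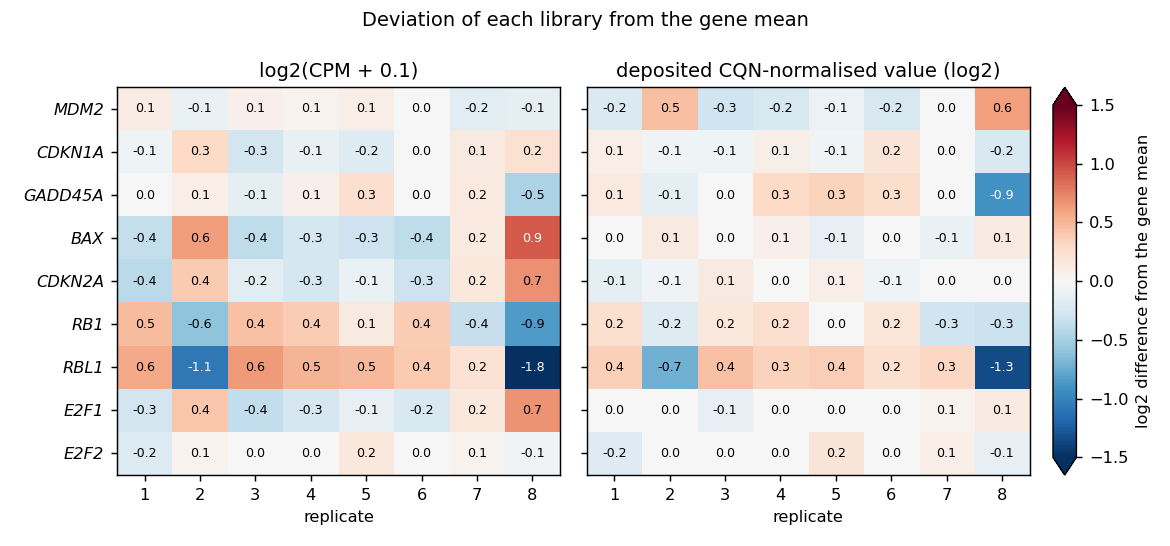
Difference of each library (columns, replicates 1 to 8) from the mean of the gene (rows) in log2 units, for log2(CPM + 0.1) on the left and the deposited CQN-normalised values on the right; red is above and blue below the gene mean. RBL1 is low in replicates 2 and 8 on both sides, whereas the deviations of BAX, CDKN2A and E2F1 on the left are nearly gone on the right and those of MDM2 appear there.

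The spread between libraries was tested for every detected gene with a goodness-of-fit test in edgeR, which sets it against the trend of variation for genes of like abundance. RBL1 was the only one of the 9 genes above the trend (edgeR, Benjamini-Hochberg adjusted p = 2.26e-04 over 11980 genes). That is 1 of 9, beside 558 of 11980 genes (4.66%). At an unadjusted p below 0.05 there were 3 of 9, beside 13.1% of genes tested. The other 2 were BAX and RB1, with unadjusted p-values of 0.0158 and 0.0281 and adjusted p-values of 0.182 and 0.263 in the same edgeR test, and the remaining 6 had adjusted p-values of 0.893 or more. With offsets for length and GC content taken from the CQN-normalised values, RBL1 (edgeR adjusted p = 6.43e-09), GADD45A (0.00941) and MDM2 (0.0237) were above the trend, 3 of 9 beside 6.27% of genes tested. With the DESeq2 fitted trend, RBL1, BAX (adjusted p = 2.88e-04) and RB1 (adjusted p = 8.22e-04) were called, 3 of 9 beside 23.5%. The RBL1 call rested on replicates 2 and 8: edgeR's adjusted p was 0.0333 without replicate 8, 0.00263 without replicate 2 and 1.0 without both.

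The SD of log2(CPM + 0.1) and the SD of the CQN-normalised values ordered the 9 genes differently. RBL1 had the largest SD on both, 0.90 and 0.66, larger than those of 99.2% and 98.5% of detected genes. RB1 and BAX had SDs of 0.53 and 0.51 on the first scale, and 0.24 and 0.10 on the second. The SD of E2F1 fell from 0.38 to 0.08 and that of CDKN2A from 0.38 to 0.09. MDM2 and GADD45A went the other way, from 0.11 to 0.35 and from 0.22 to 0.40. CDKN1A and E2F2 were near or below the medians of detected genes (0.28 and 0.16) on both scales.

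**Figure D3:**
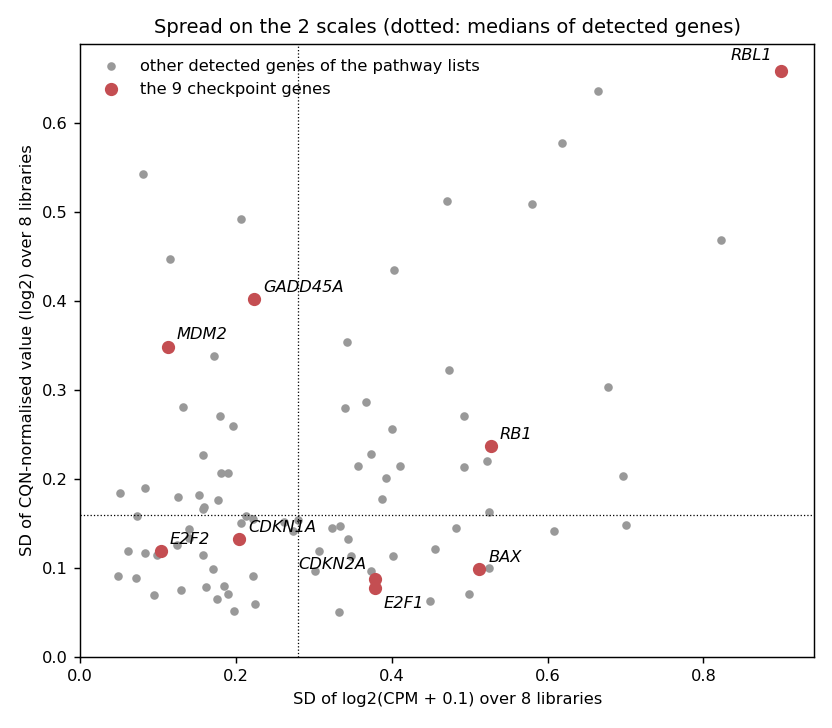
SD over 8 libraries of log2(CPM + 0.1) (horizontal axis) and of the CQN-normalised value in log2 units (vertical axis) for the 9 checkpoint genes (red) and the other detected genes of the pathway lists (grey); dotted lines mark the medians of all detected genes, 0.28 and 0.16. RBL1 lies at the far corner, MDM2 and GADD45A are high on the vertical axis only, and BAX, CDKN2A and E2F1 are high on the horizontal axis only.

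Relatives and partners were compared within each library as log2 ratios of CPM per kilobase with a pseudocount of 0.1, in 10 pairs. Signs of the 8 ratios were flipped in every combination (exact permutation, two-sided), which can give no p below 0.00781, and p-values were adjusted over the 10 pairs. For 9 of the 10 pairs all 8 libraries had the same sign (exact permutation p = 0.00781, adjusted p = 0.00868). Any pair of genes whose ratio has the same sign in every library reaches this smallest p. How often other pairs of genes do so was not counted, so the count and p-values may not be particular to these pairs. They describe only the direction of each ratio in these libraries.

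In the RB family, RB1 exceeded RBL1 by 1.66 ± 0.46 (log2, SD, n = 8) and RBL2, the third pocket protein gene (18.4 ± 5.67 CPM per kilobase), by 0.78 ± 0.14. The ratio of RB1 to RBL1 was largest in replicates 8 and 2 (2.54 and 2.11) and lay between 1.09 and 1.65 in the other 6. RBL1 was thus lower than RB1 by a wider margin in these 2 libraries. The ratio of RB1 to RBL2 stayed between 0.49 and 0.98. RBL2 itself was lowest in replicate 8, at 49.1 CPM, and highest in replicate 1, at 118 CPM (edgeR adjusted p = 0.404 for its variation).

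Among the E2F factors, E2F1 exceeded E2F2 by 2.49 ± 0.38 and lay below E2F4, the E2F that acts mainly with RBL1 and RBL2 (44.4 ± 7.15 CPM per kilobase), by -0.80 ± 0.17. The difference between E2F1 and E2F4 was -0.53 ± 0.15 on the CQN-normalised values and -0.45 on CPM with no length (exact permutation, adjusted p = 0.00868 for both), but -0.03 with the union of exons (exact permutation, adjusted p = 0.609). The ratio of E2F1 to E2F2 was 2.13 to 2.84 in 7 libraries and 3.21 in replicate 8.

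Among the CDK inhibitors, CDKN1A lay below CDKN2A by -1.77 ± 0.26 and above CDKN1B, the p27 gene (37.6 ± 4.41 CPM per kilobase), by 1.36 ± 0.20. With the union of exons the difference between CDKN1A and CDKN2A shrank to -0.28 (exact permutation, adjusted p = 0.0391), and the CQN-normalised values gave -0.82 ± 0.19. That between CDKN1A and CDKN1B grew to 2.78 with the union of exons.

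On the p53 side, MDM2 exceeded its relative MDM4 (4.29 ± 0.238 CPM per kilobase) by 2.87 ± 0.15. The ratio was lowest in replicates 2 and 8, at 2.67 and 2.72. GADD45A and GADD45B (86.9 ± 29.7 CPM per kilobase) were not distinguishable, with a mean log2 ratio of 0.13 ± 0.46 that ran from -0.59 in replicate 2 to 0.89 in replicate 1 (exact permutation p = 0.477, adjusted p = 0.477, n = 8). BAX exceeded BAK1, the other mitochondrial pore former (23.7 ± 3.15 CPM per kilobase), by 2.35 ± 0.41. The size of that difference depended on the length used, with 0.68 for the union of exons and 0.92 ± 0.29 on CQN-normalised values. BAX exceeded BCL2, an inhibitor of apoptosis, by 9.35 ± 0.70. BCL2 was not detected at 0.592 ± 0.159 CPM, so this ratio depends on the pseudocount and was 6.81 with a pseudocount of 1.

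**Figure D4:**
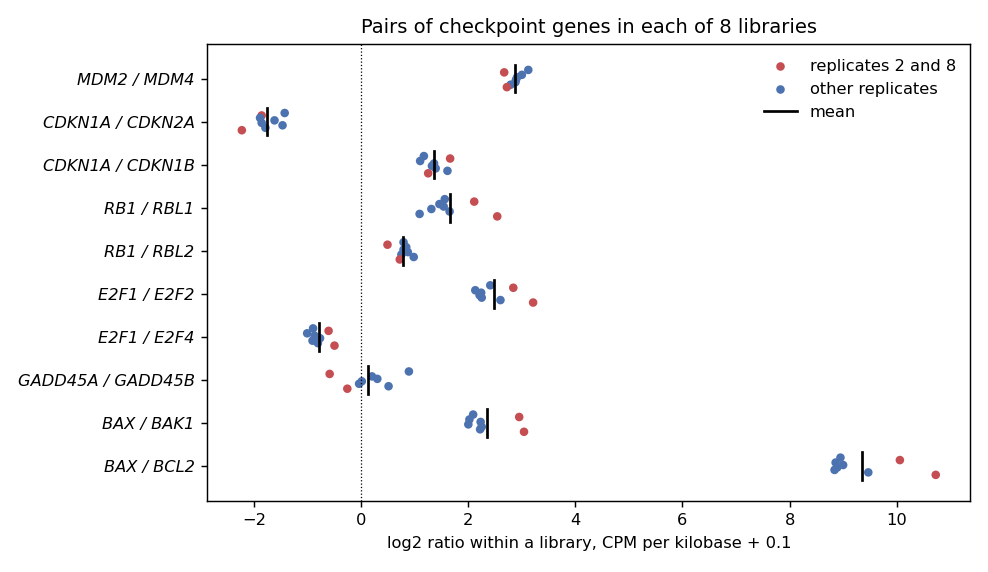
Log2 ratio of 2 genes within a library (horizontal axis, CPM per kilobase with a pseudocount of 0.1) for 10 pairs (rows); each point is 1 library, red for replicates 2 and 8, and the bar is the mean. In 9 pairs all 8 points lie on the same side of 0, and the points of GADD45A over GADD45B lie on both sides.

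Whether the checkpoint genes rise and fall together across the 8 libraries was asked for 9 pairs on the CQN-normalised values, with exact two-sided permutation over 40320 pairings and adjustment over the 9 relations. None of the 9 passed: 5 had an unadjusted exact permutation p below 0.05 for Pearson's r, and 0 for Spearman's rho. The closest was MDM2 with GADD45A, where Pearson's r was -0.854 over 8 libraries (exact permutation p = 0.00575, 0.0518 after adjustment) and Spearman's rho -0.619 (exact p = 0.115, 0.397 after adjustment). It rested on replicates 2 and 8, without which r was -0.245. MDM2 with CDKN1A gave r = -0.728 (exact p = 0.0361, 0.0823 after adjustment) and rho = -0.357 (exact p = 0.389, 0.584 after adjustment), and the r of -0.259 without replicates 2 and 8 was much smaller in size. For CDKN1A with GADD45A, r was 0.789 (exact p = 0.0219, 0.0823 after adjustment), rho was 0.452 (exact p = 0.267, 0.481 after adjustment), and leaving out replicates 6 and 8 gave 0.326 for r. RB1 with RBL1 had an r of 0.688 (exact p = 0.0441, 0.0823 after adjustment), a rho of 0.515 (exact p = 0.198, 0.445 after adjustment), and an r of 0.851 when replicates 7 and 8 were left out. E2F1 with RBL1 showed an r of -0.715 (exact p = 0.0457, 0.0823 after adjustment) and a rho of -0.619 (exact p = 0.115, 0.397 after adjustment), but r was -0.159 when replicates 3 and 8 were left out. The remaining 4 relations had larger p-values (exact, unadjusted 0.0759 to 0.994). E2F1 with E2F2 was the weakest, at r = -0.003 (exact p = 0.994, 0.994 after adjustment) and rho = 0.048 (exact p = 0.918, 0.918 after adjustment).

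On log2(CPM + 0.1), 5 of the 9 relations passed. How often pairs of other detected genes reach such an r on this scale was not counted, so these relations may not be particular to the checkpoint genes. RB1 and RBL1 rose and fell together (r = 0.913, exact permutation p = 6.94e-04, adjusted p = 0.00313, n = 8; rho = 0.905), and E2F1 went against RBL1 (r = -0.954, exact p = 2.23e-04, adjusted p = 0.00201; rho = -0.976). CDKN1A rose with BAX (r = 0.870, exact p = 0.00466, adjusted p = 0.014; rho = 0.667), and MDM2 went against both CDKN1A (r = -0.856, exact p = 0.0116, adjusted p = 0.0209; rho = -0.738) and BAX (r = -0.859, exact p = 0.0114, adjusted p = 0.0209; rho = -0.619). The relations of CDKN1A and of MDM2 with BAX had the opposite sign on CQN-normalised values (-0.393 and 0.660). Without replicates 2 and 8, 0 of the 9 relations passed after adjustment on either scale in the exact permutation test over 6 libraries. There r was 0.856 for RB1 with RBL1 (exact p = 0.0389, adjusted p = 0.169) and -0.915 for E2F1 with RBL1 (exact p = 0.0125, adjusted p = 0.113) on log2(CPM + 0.1), and 0.174 and -0.629 on CQN-normalised values. The part of the length slope in these relations was not tested.

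The rest of the pathway was described with 9 lists holding 99 genes, of which 91 were detected. Above the variation trend were 7 of the 91, beside 4.66% of all genes tested, and 16 of the 91 had an unadjusted p below 0.05, beside 13.1%. The detected list genes had a median SD of 0.26 on log2(CPM + 0.1) and 0.16 on CQN-normalised values, against 0.28 and 0.16 over all detected genes.

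Of 25 p53 target genes, 24 were detected, and EDA2R was not (0.704 ± 0.212 CPM, SD, n = 8). Their median level was 16.6 CPM per kilobase, against 11.4 over all detected genes. Per kilobase, BAX, CDKN1A and GADD45A were the 3 highest of the list. PMAIP1, which encodes the BCL2-family killer NOXA, followed with 78.3 ± 24.9 CPM per kilobase. The place of BAX depended on the scale. On CQN-normalised values BAX (7.63) lay below CDKN1A (8.66), PMAIP1 (8.16), GADD45A (8.03), MDM2 (7.66) and CCNG1 (7.66). FDXR, a mitochondrial reductase gene, and BTG2, an antiproliferative gene, were above the trend, 2 of 24 beside 4.66% of all genes tested. In the same edgeR test 5 of 24 had an unadjusted p below 0.05, beside 13.1%. FDXR ran from 14.8 CPM in replicate 5 to 49.4 CPM in replicate 8 (edgeR adjusted p = 0.00642). BTG2 ran from 31.2 CPM in replicate 7 to 123 CPM in replicate 8 (edgeR adjusted p = 0.0217). FDXR lost its call with the length and GC offsets (edgeR adjusted p = 0.629) and BTG2 kept it (3.77e-08). Replicate 8 was thus the highest library for FDXR and BTG2 and the lowest for GADD45A.

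Of 13 regulators of p53, 12 were detected, and the transcription factor gene TP63 was not (0.735 ± 0.258 CPM). USP7, a deubiquitinase acting on MDM2, and CHEK1, a checkpoint kinase, had 23.3 ± 2.85 and 20.3 ± 1.87 CPM per kilobase. The kinase genes ATM, which signals double-strand breaks, and HIPK2 were above the trend, 2 of 12 beside 4.66% of all genes tested. At an unadjusted edgeR p below 0.05 there were 3 of 12, beside 13.1%. ATM ran from 43.0 CPM in replicate 8 to 140 CPM in replicate 6 (edgeR adjusted p = 0.0132), and HIPK2 from 43.97 CPM in replicate 8 to 178 CPM in replicate 3 (edgeR adjusted p = 0.00182). With the length and GC offsets ATM had an edgeR adjusted p of 1.0 and HIPK2 of 1.22e-04.

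In the BCL2 family 10 of 12 genes were detected. Above the trend were 0 of the 10, beside 4.66% of all genes tested. An unadjusted edgeR p below 0.05 was found for 3 of 10, beside 13.1%. The highest per kilobase were the survival gene MCL1 (144 ± 33.7 CPM per kilobase), BAX and the survival gene BCL2L1 (99.4 ± 8.55). On CQN-normalised values BAX (7.63) lay below MCL1 (9.56), BCL2L1 (8.94) and PMAIP1 (8.16). BCL2 and BCL2A1 (0.0254 ± 0.0314 CPM) were not detected. Of 7 CDK inhibitor genes 6 were detected. Above the trend were 0 of the 6, beside 4.66% of all genes tested. At an unadjusted edgeR p below 0.05 there were 0, beside 13.1%. Per kilobase, CDKN2A, CDKN2C (109 ± 29.9 CPM per kilobase) and CDKN1A led, and CDKN1C was not detected (0.621 ± 0.12 CPM). On CQN-normalised values CDKN1A (8.66) lay above CDKN2C (7.63). Of the 3 GADD45 genes, GADD45G was not detected (0.134 ± 0.0752 CPM).

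The next list was the RB family and the MuvB core, whose RBL1 and RBL2 (not RB1) join MuvB and E2F4 in the DREAM repressor. All 8 genes were detected, led by RB1, RBBP4 (21.4 ± 2.59 CPM per kilobase) and RBL2. RBL1 alone was above the trend, 1 of 8 beside 4.66% of all genes tested. With an unadjusted edgeR p below 0.05 there were 3 of 8, beside 13.1%. Of 10 E2F and DP factors 9 were detected. Among these 9, 0 were above the trend, beside 4.66% of all genes tested. An unadjusted edgeR p below 0.05 was found for 1 of 9, beside 13.1%. TFDP1, the dimer partner of E2F proteins, was the highest at 79.5 ± 6.62 CPM per kilobase, followed by E2F4 and E2F1, and E2F5 was not detected (0.296 ± 0.0644 CPM). The G1 cyclins and kinases had 8 of 9 genes detected, led by CDK4 (99.6 ± 23.97 CPM per kilobase), CCND3 (77.8 ± 17.4) and CDK2 (53.1 ± 1.79), and CCND2 was not detected (0.149 ± 0.0288 CPM). CCND1 and CDK6, a cyclin D and a kinase that phosphorylate RB, were above the trend, 2 of 8 beside 4.66% of all genes tested. The same 2 of 8 had an unadjusted edgeR p below 0.05, beside 13.1%. CCND1 ran from 30.8 CPM in replicate 2 to 101 CPM in replicate 7 (edgeR adjusted p = 0.024), and CDK6 from 20.3 CPM in replicate 2 to 66.9 CPM in replicate 3 (edgeR adjusted p = 0.0194). With the length and GC offsets CDK6 had an edgeR adjusted p of 1.0 and CCND1 of 1.38e-09.

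All 24 E2F target genes were detected, with a median of 54.3 CPM per kilobase. PCNA (243 ± 48.2), TK1 (184 ± 63.9) and MCM7 (164 ± 27.1 CPM per kilobase), all of DNA synthesis, were the highest. RBL1, itself on this list, was the only one above the trend, 1 of 24 beside 4.66% of all genes tested (edgeR; 2 of 24 at an unadjusted p below 0.05, beside 13.1%). With the DESeq2 fitted trend 3 of the 24 were called, beside 23.5% of all genes. The list had a median SD of 0.12 on CQN-normalised values.

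**Figure D5:**
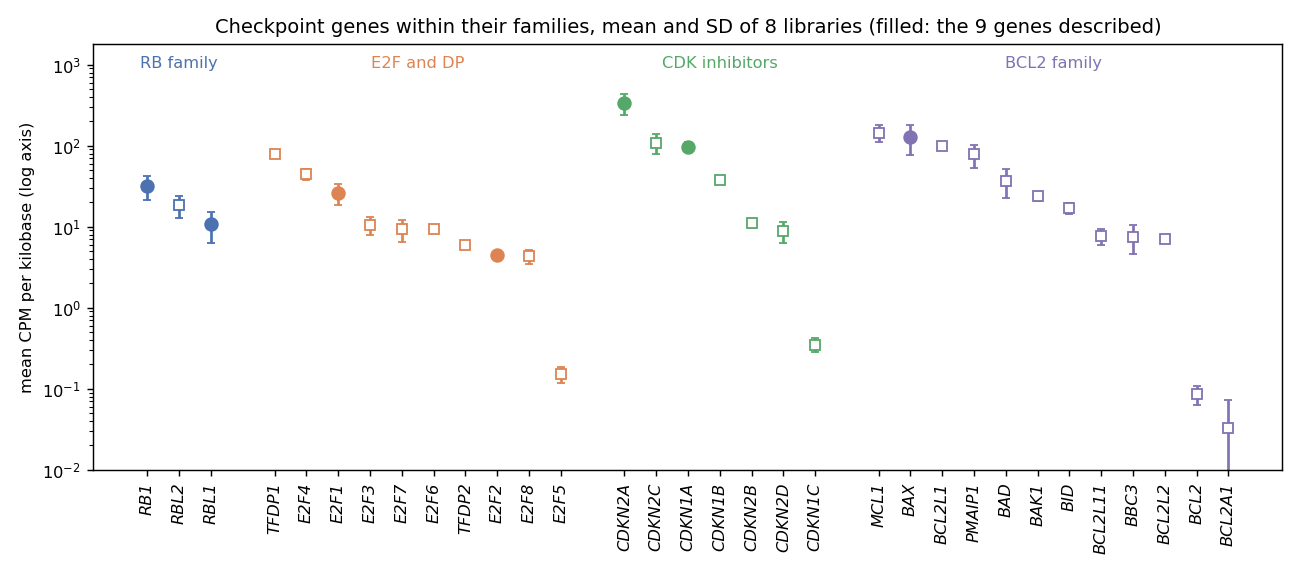
Mean CPM per kilobase (log axis) with the SD of 8 libraries for the RB, E2F and DP, CDK inhibitor and BCL2 families; filled circles are checkpoint genes described above and open squares their relatives. CDKN2A is the highest gene shown, and BCL2, BCL2A1, CDKN1C and E2F5 lie below 1.

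For each checkpoint gene, the 2 genes with the most similar CQN-normalised values were sought among 11980 detected genes, by Pearson's r over the 8 libraries, as a description. With so few libraries many genes reach a high r. RBL1 was closest to LRRK1 (r = 0.997) and FUBP3 (0.996), whose lowest levels were 13.2 and 53.9 CPM. RB1 was closest to MANEA (0.997) and ARHGEF10 (0.995), MDM2 to ATXN3 (0.998) and HNRNPA3 (0.996), and CDKN1A to CXXC5 (0.996) and INPPL1 (0.969). GADD45A was closest to MAP4K3 and TMEM209 (both 0.978), BAX to TTC21B (0.962) and TCEANC2 (0.958), and CDKN2A to TIMM22 (0.939) and CDK5RAP1 (0.932). E2F1 was closest to MRPS17 (0.942) and TNFRSF9 (0.940), and E2F2 to SLC35E3 (0.982) and SMAGP (0.961). TNFRSF9 was near the cutoff of 1 CPM, at 1.04 to 1.87 CPM, and the CQN-normalised values of E2F1 differed little (SD 0.08). No checkpoint gene was among the 2 closest to another.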

How the data were processed

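Raw counts per gene and CQN-normalised values of 8 libraries were read from 1 table deposited by the authors. Per the submitters' processing notes the tools were CASAVA 1.9, TopHat2 2.0.6 and HTSeq with build hg19. Counting settings, strand use and CQN parameters are not given in the sources used here. All 186768 deposited counts were even, so they were halved and called read pairs, and counting error used the halved counts. Whether both reads of a pair were counted or the counts were doubled cannot be told. The deposited CQN values were read as log2 from their range, and all 11980 detected genes had one. Table starts count from 0, and coordinates are printed from 1. Of 23346 genes, 19467 matched GENCODE 44 (GRCh37) by symbol and 2013 by a RefSeq synonym. All 16 value columns matched a sample by replicate number (0 others), and 0 rows lacked a gene name.

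CPM used TMM library sizes (edgeR 4.0.16, R 4.3.3, counts as deposited). With 1 group there was no contrast. An intercept-only edgeR model gave the goodness-of-fit test across all detected genes (Benjamini-Hochberg, threshold 0.05). Permutations used Python 3.11.15. In simulated counts with no change, 0 of 11824 genes were called, and of 195 tested genes raised 4-fold in 1 library 171 were called. The simulated counts followed the fitted trend exactly and had no shift with transcript length. They do not show the error rate where libraries differ in this way. Genes lowered in 2 libraries were not simulated.

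Members and lists were chosen with earlier results of these data known. Named genes were the 9 members, both genes of the pairs, the 3 highest per kilobase, those not detected (where 5 or fewer) and those above the trend of each list, and the 2 closest in pattern. TIGAR was matched as C12orf5. A withheld gene of the lists is not reported here. Alternatives were DESeq2 1.42.0 size factors and trend (a local fit, since the parametric one failed), total counts, other filters, scales, lengths and pseudocounts, and leaving out libraries. Leaving out replicates 2 and 8 together was chosen after seeing the data.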

Additional observations from a re-analysis of the deposited data

Results flagged for a closer look

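In 61 sets of 8 values, the highest or lowest library was tested for a gap to its nearest neighbour of more than Dixon's critical share of the range, which chance gives in about 1 of 20 sets. It was exceeded in 3, all by replicate 8. The CQN-normalised value of GADD45A was 7.12 in replicate 8 and the next lowest 7.88, a gap of 0.61 of the range. BCL2 had 0.237 CPM in replicate 8, the lowest library of a gene that was not detected (gap 0.558 of the range). BTG2 had 123 CPM in replicate 8, its highest library (gap 0.53 of the range). The low RBL1 levels did not meet this rule, because replicates 2 and 8 were both low.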

How the results depend on the processing

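All 9 genes stayed detected under every scaling and filter tried and without each library, and no mean CPM moved by more than 1 SD. Of the 99 list genes, 91 were detected at 1 CPM, and 96 when at least 10 counts in each library were required. Of all 23346 genes these filters kept 11980 and 14671. Not detected thus means below the cutoff of 1 CPM, not without reads. No paired analysis was possible because all samples form 1 group. The number of genes above the variation trend was 558, and 381 to 491 without a single library. It was 2811 with the DESeq2 fitted trend and 335 without replicates 2 and 8. Of the 9 genes, 3 were called with the DESeq2 fitted trend, beside 23.5% of genes tested, and 3 with length and GC offsets, beside 6.27%. Without replicates 2 and 8, 0 of the 9 were called, beside 335 of 12173 genes tested. The cause was not tested. The pair ratios kept their direction and call under each alternative except E2F1 over E2F4 with the union of exons (-0.03). Relations depended on the scale. With log2(CPM + 0.1), r turned to 0.282 for MDM2 with GADD45A, -0.859 for MDM2 with BAX, -0.231 for CDKN1A with GADD45A, 0.870 for CDKN1A with BAX and 0.129 for E2F1 with E2F2. With its sign kept, r passed the threshold for MDM2 with CDKN1A (-0.856), RB1 with RBL1 (0.913) and E2F1 with RBL1 (-0.954). MDM2 with BAX and CDKN1A with BAX passed with the turned sign (exact permutation, adjusted p = 0.0209 and 0.014). Leaving out 1 library at a time gave r from -0.860 to -0.436 for MDM2 with CDKN1A, from -0.924 to -0.702 for MDM2 with GADD45A, from 0.453 to 0.905 for CDKN1A with GADD45A and from -0.225 to 0.436 for E2F1 with E2F2. MDM2 with CDKN1A passed without replicate 3, MDM2 with GADD45A without replicate 3 or 5, and CDKN1A with GADD45A without replicate 5. Counting error, taken from halved counts, was at most 3.87% in the library with the fewest reads of each of the 9 genes.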

Other observations

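Among genes of the lists not described above, the transcription factor gene TP73 was detected at 17.1 ± 2.60 CPM (SD, n = 8). MDM4, the partner of MDM2, had an edgeR adjusted p of 1.0 for its variation with the counts alone and 6.74e-06 with the length and GC offsets, and PMAIP1 had 0.167 and 2.03e-05. PMAIP1 ran from 63.7 CPM in replicate 8 to 188 CPM in replicate 3. GADD45B ran from 66.9 CPM in replicate 1 to 201 CPM in replicate 2, with edgeR adjusted p-values of 0.416 and 3.64e-06. POLH, a polymerase that bypasses DNA damage, had 66.5 ± 9.35 CPM and edgeR adjusted p-values of 1.0 and 5.89e-06. Of the 91 detected list genes, 11 were above the trend with these offsets, beside 6.27% of all genes tested. They were chosen after their values were seen.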
